A study of Mus musculus with 6 samples.

Results

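The respiratory chain was read in colonic CD4 T cells through 102 of the 15473 gene columns of a single-cell count table: every column whose name starts with Nduf followed by a, b, c, s or v, with Uqcr, with Cox4, Cox5, Cox6, Cox7 or Cox8, with Atp5 or with mt-, together with the genes of the 4 subunits of succinate dehydrogenase. Of these, 89 are encoded in the nucleus and 13 on the mitochondrial chromosome. The nuclear genes comprise 37 subunits of complex I, 8 assembly factors of complex I (the Ndufaf genes), 4 subunits of complex II, 8 of complex III, 14 of complex IV, 17 of complex V and Cox7a2l, a factor that joins complexes III and IV into supercomplexes. Ndufa4 was counted with complex IV, of which it is a subunit. The mitochondrial genes encode 7 subunits of complex I, 1 of complex III, 3 of complex IV and 2 of complex V. The members were taken by name, by a rule set with earlier results of these data known.

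Complexes I and II pass electrons from NADH and succinate to ubiquinone, complex III passes them on to cytochrome c, and complex IV hands them to oxygen. Complexes I, III and IV pump protons across the inner membrane as they do so, and complex V lets the protons back through and makes ATP. Complexes I, III, IV and V need subunits from both genomes. The mitochondrial ones are transcribed as long polycistronic RNAs and cut apart, whereas complex II is wholly nuclear. In T cells the chain supports activation, effector function and the persistence of memory and regulatory cells.

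The cells were sorted from the colonic lamina propria of Foxp3{delta}EGFPiCre/WT mice that also carry R26lsl-tdTomato/wt, in which a reporter allele of Foxp3 carries EGFP and a Cre recombinase, and Cre switches on tdTomato. The tdTomato+GFP+ gate, cells that express the reporter allele, was compared with the tdTomato-GFP- gate of the same genotype. Whether the {delta} allele makes working Foxp3 protein cannot be read from RNA counts, so the tdTomato+GFP+ cells are not called Treg cells here. Each gate held 3 biological replicates, marked with hashtag antibodies and run together on 1 lane of a droplet instrument. Gate and lane therefore cannot be told apart. The labels used here state neither sex nor age. The comparison sets CD4 T cells that express the reporter allele against CD4 T cells of the same tissue that show neither reporter colour. In heterozygous females each cell uses 1 X chromosome, so the second gate can also hold cells that express Foxp3 from the other allele.

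After leaving out 4721 cells without a replicate, 18874 cells remained, 8765 tdTomato+GFP+ and 10109 tdTomato-GFP-. A replicate held 7424984 to 20153550 unique molecular identifiers (UMIs) in the tdTomato+GFP+ gate and 7925662 to 23289046 in the tdTomato-GFP- gate. Foxp3 itself was counted at 144, 118 and 115 CPM (UMI counts scaled to the total of the replicate, without hashtags) in the tdTomato+GFP+ replicates and at 174, 194 and 168 CPM in the tdTomato-GFP- replicates, and in the Th17-marker clusters at 158, 138 and 136 CPM in tdTomato+GFP+, against 55.3, 30.9 and 19.8 CPM in tdTomato-GFP- replicates. The counts do not separate the alleles. The defining genes Cd3e and Cd4 were present in both gates, Cd3e at a mean of 1510 CPM in tdTomato+GFP+ cells and 1109 CPM in tdTomato-GFP- cells, and Cd4 at 479 CPM in tdTomato+GFP+ and 336 CPM in tdTomato-GFP- cells. Among markers of other cells, the summed gamma delta T cell genes averaged 222 CPM in tdTomato+GFP+ and 61.2 CPM in tdTomato-GFP- cells and the myeloid genes 402 CPM (tdTomato+GFP+) and 327 CPM (tdTomato-GFP-), both without overlap, and the B and plasma cell genes overlapped (471 to 2515 CPM in tdTomato+GFP+, 901 to 2413 CPM in tdTomato-GFP-). Without clusters 11 and 14 and the unclustered cells, the B and plasma cell genes did not overlap (74.3 to 86.0 CPM in tdTomato+GFP+, 188 to 266 CPM in tdTomato-GFP-). Over all cells, the NK and ILC genes averaged 181 CPM (tdTomato+GFP+) and 132 CPM (tdTomato-GFP-), without overlap. The CD8 genes averaged 4.7 CPM (tdTomato+GFP+) and 7.24 CPM (tdTomato-GFP-), also without overlap. The epithelial, stromal and erythroid genes overlapped. The part of all these markers in the results was not tested. The authors' clustering has 16 clusters. Clusters 1, 2, 3, 12 and 13, led by Il17a, Il17f and Ccl20, are called Th17-marker clusters here, and they held 64.6% of tdTomato+GFP+ and 11.1% of tdTomato-GFP- cells. The gates shared 174 barcode sequences.

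Over all cells, the nuclear members were slightly more abundant in the tdTomato+GFP+ gate and the mitochondrial members less abundant. The 89 nuclear genes together took 23496, 23091 and 22874 CPM of the UMIs without hashtags in the tdTomato+GFP+ replicates and 22402, 21708 and 21303 CPM in the tdTomato-GFP- replicates. The 13 mitochondrial genes took 7525, 7897 and 7501 CPM in the tdTomato+GFP+ replicates and 8694, 8740 and 8660 CPM in the tdTomato-GFP- replicates. Neither pair of groups overlapped, and the log2 ratio of the means was 0.087 for the nuclear and -0.187 for the mitochondrial sum. With both genomes added, the groups overlapped, with 30795 ± 364 CPM in tdTomato+GFP+ and 30502 ± 568 CPM in tdTomato-GFP- cells (SD, n = 3 each). The ratio of nuclear to mitochondrial UMIs was 3.12, 2.92 and 3.05 in the tdTomato+GFP+ replicates, above the 2.58, 2.48 and 2.46 of the tdTomato-GFP- replicates. Within single clusters the ratio was higher in every tdTomato+GFP+ replicate in cluster 7 (a mean of 2.05, beside 1.71 for tdTomato-GFP-), cluster 10 (3.99, beside 3.37 for tdTomato-GFP-) and cluster 11 (2.51, beside 1.72 for tdTomato-GFP-), and it overlapped in the other 8 clusters compared. The nuclear sum alone lay higher in every tdTomato+GFP+ replicate in cluster 0 (a mean of 21958 CPM in tdTomato+GFP+ and 21168 CPM in tdTomato-GFP- cells), cluster 5 (21639 CPM in tdTomato+GFP+, 20343 CPM in tdTomato-GFP-), cluster 6 (22807 CPM in tdTomato+GFP+, 22109 CPM in tdTomato-GFP-) and cluster 11 (20757 CPM in tdTomato+GFP+, 19515 CPM in tdTomato-GFP-). The mitochondrial sum lay lower in every tdTomato+GFP+ replicate in cluster 7 (10866 CPM in tdTomato+GFP+, 12472 CPM in tdTomato-GFP-), cluster 10 (7117 CPM in tdTomato+GFP+, 8357 CPM in tdTomato-GFP-) and cluster 11 (8308 CPM in tdTomato+GFP+, 11813 CPM in tdTomato-GFP-). No p was computed for a sum over the members. In a sum over all cells, the mix of cell types and the RNA level within a type cannot be told apart. Sums within clusters and with equal cells of each cluster are therefore given as well.

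**Figure D1:**
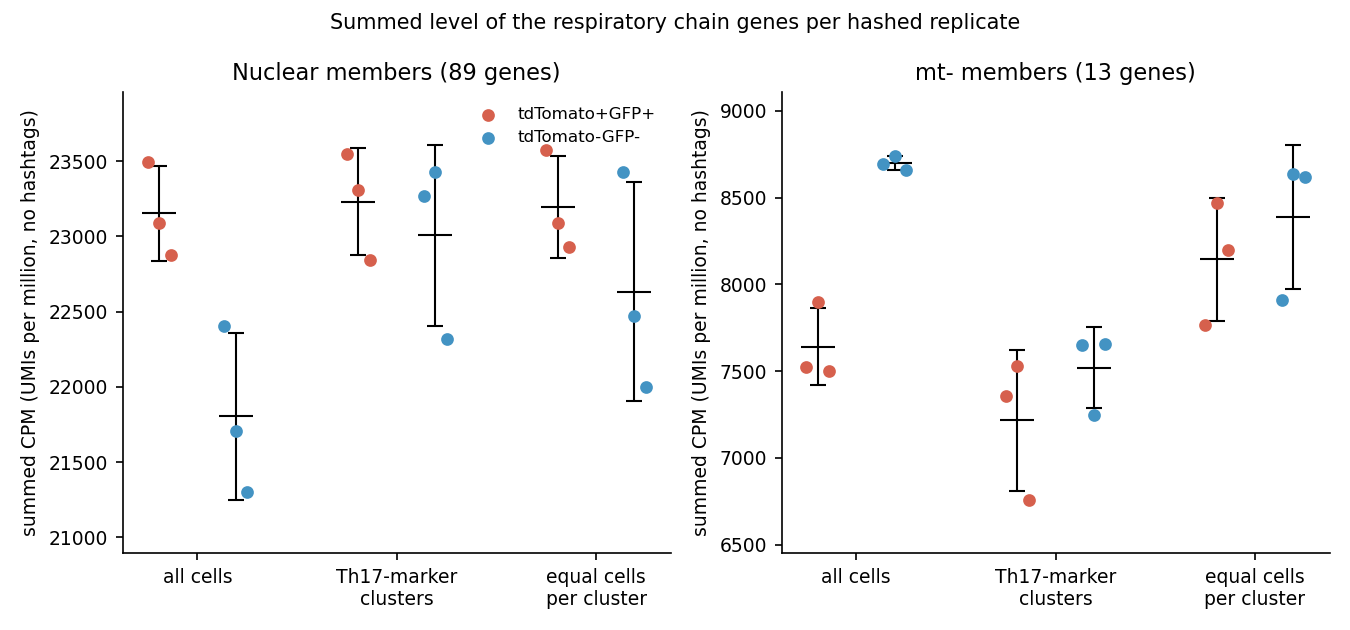
Summed CPM of the 89 nuclear (left) and 13 mitochondrial genes (right) in each hashed replicate, over all cells, over the Th17-marker clusters and after drawing the same number of cells of each cluster for either gate. Points are replicates (tdTomato+GFP+ red, tdTomato-GFP- blue), bars the mean ± SD, and the axes do not start at 0. The gates lie apart over all cells and overlap in the other 2 sets of cells.

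Split by complex, the nuclear subunits of complexes I, II, III and IV and the complex I assembly factors lay above the tdTomato-GFP- replicates in every tdTomato+GFP+ replicate, while complex V overlapped. Complex IV had 5859, 5832 and 5760 CPM in the tdTomato+GFP+ replicates and 5507, 5336 and 5198 CPM in the tdTomato-GFP- replicates, a log2 ratio of 0.12. Complex III had a log2 ratio of 0.12, complexes I and II 0.10 each, the assembly factors 0.16, and complex V 0.045, with 7884 ± 119 CPM in tdTomato+GFP+ and 7641 ± 205 CPM in tdTomato-GFP- cells (SD, n = 3 each). The mitochondrial subunits of complexes I, III, IV and V all lay lower in every tdTomato+GFP+ replicate, with log2 ratios of -0.15, -0.17, -0.19 and -0.22. Without clusters 11 and 14 and the unclustered cells, those of complex I overlapped, at 1552, 1644 and 1464 CPM in tdTomato+GFP+, against 1743, 1759 and 1629 CPM in tdTomato-GFP- replicates, and those of complexes III, IV and V did not.

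Gene by gene, 87 of the 89 nuclear members had enough counts to be tested over all cells. Of these, 14 passed as higher and 1 as lower in tdTomato+GFP+ cells (edgeR quasi-likelihood test, Benjamini-Hochberg adjusted p below 0.05 over 11933 genes). Among all tested genes 13% passed as higher and 13.4% as lower. In this fit, which did not pair the replicates, the higher count is therefore near the background and the lower count below it. The median log2 fold change was 0.10 over the nuclear members and -0.002 over all tested genes. With the replicate number as a block, 30 of the 87 passed as higher, above the background of 17.3%. As lower 2 passed, below the background of 17.4%. Under DESeq2, 10 passed as higher and 1 as lower, against a background of 10.2% and 11.6%. In 42 of the 87, all tdTomato+GFP+ replicates lay above the tdTomato-GFP- ones, a larger share than the 22.8% of all tested genes. Wholly below lay 2, a smaller share than the 20.1% of all tested genes. With 1 replicate left out, the count of 14 ranged from 6 to 20. It was 8 without tdTomato+GFP+ replicate 1 and 6 without tdTomato+GFP+ replicate 2. Without tdTomato-GFP- replicate 2 it was 6, and without tdTomato-GFP- replicate 3 it was 8. The share of all genes called in these smaller fits is not given, so these counts have no background. Uqcr10, Uqcr11, Ndufa4, Cox7a2 and Cox6b1 passed whichever 1 of the 6 replicates was left out.

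The highest folds that passed were in complex III. Uqcr10, the homologue of yeast Qcr9, measured 333, 313 and 297 CPM in the tdTomato+GFP+ replicates and 255, 239 and 231 CPM in the tdTomato-GFP- replicates. It rose with a log2 fold change of 0.37 ± 0.06 (SE, adjusted p = 0.00242). Uqcr11, a neighbouring small subunit, measured 241, 228 and 214 CPM in tdTomato+GFP+, against 183, 182 and 172 CPM in tdTomato-GFP- replicates and rose by a log2 of 0.33 (adjusted p = 0.00391). Uqcrb, the ubiquinone-binding subunit, rose by 0.17, and its adjusted p was between 0.0605 and 0.127 without tdTomato+GFP+ replicate 1 or 2 or any tdTomato-GFP- replicate. Uqcrh, the hinge protein, did not pass, with 550, 569 and 590 CPM in the tdTomato+GFP+ replicates and 586, 586 and 606 CPM in the tdTomato-GFP- replicates, which overlapped. The catalytic Rieske iron-sulfur subunit Uqcrfs1 had 168 ± 2.27 CPM in tdTomato+GFP+ and 170 ± 6.93 CPM in tdTomato-GFP- cells (SD, n = 3 each).

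In complex IV, the 3 genes that rose were Ndufa4, Cox7a2 and Cox6b1. Ndufa4 measured 511, 511 and 464 CPM in the tdTomato+GFP+ replicates and 407, 415 and 379 CPM in the tdTomato-GFP- replicates, a log2 fold change of 0.295 ± 0.06 (SE, adjusted p = 0.00744). Cox7a2, a small transmembrane subunit, measured 357, 358 and 374 CPM in tdTomato+GFP+, against 314, 291 and 300 CPM in tdTomato-GFP- replicates and had a log2 fold change of 0.25. Cox6b1, which faces the intermembrane space, measured 538, 522 and 510 CPM in tdTomato+GFP+, against 460, 433 and 427 CPM in tdTomato-GFP- replicates, a log2 fold change of 0.24. The replicates of the gates did not overlap for any of the 3. Cox8a and Cox4i1, the nuclear complex IV subunit genes with the most UMIs, did not pass. Cox8a had 993 ± 23.3 CPM in tdTomato+GFP+ and 910 ± 9.96 CPM in tdTomato-GFP- cells, and Cox4i1 had 746 ± 13.965 CPM in tdTomato+GFP+ and 743 ± 14.475 CPM in tdTomato-GFP- cells (SD, n = 3 each). Cox6c averaged 630 CPM in tdTomato+GFP+ and 573 CPM in tdTomato-GFP- cells and did not pass.

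Complex I contributed 6 subunits and 1 assembly factor, and complex II contributed Sdhd, a membrane anchor. The 6 subunits were Ndufb6 (log2 fold change 0.24), Ndufab1 (0.24), Ndufs5 (0.23), Ndufb8 (0.19), Ndufb3 (0.19) and Ndufv2 (0.15). Ndufab1, the mitochondrial acyl carrier protein, measured 162, 159 and 166 CPM in the tdTomato+GFP+ replicates and 131, 137 and 141 CPM in the tdTomato-GFP- replicates. Ndufv2, a core iron-sulfur subunit of the NADH-binding arm, measured 154, 151 and 146 CPM in tdTomato+GFP+, against 135, 133 and 134 CPM in tdTomato-GFP- replicates. Its adjusted p was 0.0484. Each of these 6 lost its call without tdTomato+GFP+ replicate 2, with adjusted p values of 0.0501 (Ndufab1), 0.0676 (Ndufs5), 0.0911 (Ndufb6), 0.148 (Ndufb3), 0.152 (Ndufb8) and 0.167 (Ndufv2). The call was also lost for Ndufab1 without tdTomato-GFP- replicate 1 (0.052) and for Ndufs5 without tdTomato-GFP- replicate 2 (0.0507). Without tdTomato+GFP+ replicate 1, tdTomato-GFP- replicate 2 or tdTomato-GFP- replicate 3 it was lost for Ndufb6 (0.057 to 0.0895) and Ndufb8 (0.101 to 0.13), and without tdTomato+GFP+ replicate 1 or any tdTomato-GFP- replicate for Ndufb3 (0.0606 to 0.107) and Ndufv2 (0.093 to 0.139). Under DESeq2, Ndufb3 (adjusted p = 0.0503), Ndufb8 (0.0508), Ndufv2 (0.0845) and the assembly factor Ndufaf8 (0.0661) did not pass, and Ndufv2 did not with RLE size factors (0.0538). Of the nuclear complex I genes with the most UMIs, Ndufa13 averaged 446 CPM in tdTomato+GFP+ and 408 CPM in tdTomato-GFP- cells, Ndufa6 371 CPM (tdTomato+GFP+) and 363 CPM (tdTomato-GFP-), and Ndufa3 318 CPM (tdTomato+GFP+) and 331 CPM (tdTomato-GFP-), and none passed. The assembly factor Ndufaf8 rose by a log2 of 0.22, with adjusted p values of 0.0502, 0.0713, 0.083 and 0.08 without tdTomato+GFP+ replicate 1, tdTomato+GFP+ replicate 2, tdTomato-GFP- replicate 2 and tdTomato-GFP- replicate 3. Sdhd measured 87.0, 82.8 and 79.0 CPM in tdTomato+GFP+, against 72.4, 66.0 and 67.1 CPM in tdTomato-GFP- replicates, a log2 fold change of 0.26 (adjusted p = 0.0513 without tdTomato-GFP- replicate 2). The catalytic subunit Sdha averaged 137 CPM in tdTomato+GFP+ and 140 CPM in tdTomato-GFP- cells and the iron-sulfur subunit Sdhb 183 CPM (tdTomato+GFP+) and 168 CPM (tdTomato-GFP-), neither past the threshold.

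No nuclear complex V gene passed over all cells under edgeR or DESeq2, and 2 of the 17 had a higher level at an unadjusted p below 0.05. Of its nuclear subunit genes with the most UMIs, Atp5e averaged 889 CPM in tdTomato+GFP+ and 930 CPM in tdTomato-GFP- cells, with every tdTomato+GFP+ replicate lower. Atp5g3, a c-ring gene, averaged 722 CPM in tdTomato+GFP+ and 646 CPM in tdTomato-GFP- cells and Atp5h, a stalk subunit, 656 CPM (tdTomato+GFP+) and 644 CPM (tdTomato-GFP-), and both overlapped. The other c-ring genes Atp5g1 and Atp5g2, which encode the same mature protein, had means in tdTomato+GFP+ cells of 283 CPM (Atp5g1) and 657 CPM (Atp5g2), beside means in tdTomato-GFP- cells of 257 CPM (Atp5g1) and 635 CPM (Atp5g2). The single nuclear gene that fell was Cox7a2l, with 116, 112 and 124 CPM in the tdTomato+GFP+ replicates and 133, 134 and 147 CPM in the tdTomato-GFP- replicates (log2 fold change -0.25, adjusted p = 0.0215). Without tdTomato+GFP+ replicate 1, tdTomato+GFP+ replicate 2 or tdTomato-GFP- replicate 3, its adjusted p was 0.054, 0.0906 and 0.0642.

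Promoters of 75 of the 89 nuclear members were matched in RefSeq's table for GRCm38.p6 (250 bases before to 50 after the start; 2 by an older symbol). They are shown because transcription factors long linked to nuclear respiratory genes, NRF1, GABP and YY1, have short known motifs. The letters GCGCN followed directly by TGCGC (NRF1), CCGGAAGT (GABP) and AAGATGGCG (YY1) were searched on both strands. NRF1's letters were in 19 of the 75 members (25.3%), beside 5.19% of all 27025 genes in the table. GABP's letters were in 5 (6.7%, beside 4.31%) and YY1's in 8 (10.7%, beside 1.64%). At least 1 of the 3 was in 30 members (40.0%, beside 10.32%). Among the 13 matched genes that rose over all cells, 2 held the NRF1 letters, 1 those of GABP and 1 those of YY1, and among the 60 that did not pass the counts were 17, 4 and 7. Neither Cox5a, Cox7c nor Ndufa1, which fell in the Th17-marker clusters as described below, held any of them. The 27025 genes were not limited to genes counted in these cells, so the shares do not compare like sets. A match is a description of these letters. The promoters of 3 genes that rose, 1 per motif, and of Cox7c, which fell in 3 of the Th17-marker clusters, are printed 5′ to 3′ on the gene's strand, with matches in capitals. They lie at chr9:50603800-50604099 (minus strand), chr10:80406772-80407071 (minus), chr11:120098684-120098983 (plus) and chr13:86046746-86047045 (minus).
Sdhd: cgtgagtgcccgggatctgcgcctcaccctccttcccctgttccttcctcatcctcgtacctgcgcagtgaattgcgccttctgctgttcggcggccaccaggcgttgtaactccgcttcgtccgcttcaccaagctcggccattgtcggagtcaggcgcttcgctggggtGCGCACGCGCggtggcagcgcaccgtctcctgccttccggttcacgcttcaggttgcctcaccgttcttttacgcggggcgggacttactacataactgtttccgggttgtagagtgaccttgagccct
Uqcr11: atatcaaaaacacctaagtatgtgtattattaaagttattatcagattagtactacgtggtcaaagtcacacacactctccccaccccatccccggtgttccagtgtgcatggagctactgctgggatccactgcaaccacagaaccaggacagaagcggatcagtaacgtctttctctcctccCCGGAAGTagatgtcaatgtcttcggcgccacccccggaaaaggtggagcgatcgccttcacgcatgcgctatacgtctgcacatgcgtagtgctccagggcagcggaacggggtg
Ndufaf8: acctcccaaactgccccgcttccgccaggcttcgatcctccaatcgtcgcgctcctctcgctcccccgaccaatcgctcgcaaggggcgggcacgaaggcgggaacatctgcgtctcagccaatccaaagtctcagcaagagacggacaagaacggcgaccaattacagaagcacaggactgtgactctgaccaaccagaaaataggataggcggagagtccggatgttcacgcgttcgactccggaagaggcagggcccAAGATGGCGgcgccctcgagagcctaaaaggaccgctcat
Cox7c: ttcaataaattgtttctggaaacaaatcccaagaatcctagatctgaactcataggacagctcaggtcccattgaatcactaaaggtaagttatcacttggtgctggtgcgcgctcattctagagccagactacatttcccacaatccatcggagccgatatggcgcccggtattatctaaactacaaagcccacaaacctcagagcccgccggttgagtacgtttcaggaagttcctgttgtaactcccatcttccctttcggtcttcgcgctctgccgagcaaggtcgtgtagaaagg
The capitals mark the NRF1 letters in Sdhd, the GABP letters in Uqcr11 and the YY1 letters in Ndufaf8, and Cox7c has none.

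Of the 13 mitochondrial genes, 8 fell in tdTomato+GFP+ cells over all cells and none rose under edgeR or DESeq2 (0 at an unadjusted p below 0.05), where 13.4% of all tested genes fell. The median log2 fold change was -0.22, and all 13 values were below 0. With equal cells of each cluster drawn from both gates, as described below, 5 of them were above 0 without passing: mt-Nd4l (0.14), mt-Nd6 (0.08), mt-Nd4 (0.07), mt-Nd5 (0.05) and mt-Co1 (0.03). mt-Nd6 was also above 0 without tdTomato-GFP- replicate 1 (0.004) or 2 (0.012), and mt-Nd4l without tdTomato+GFP+ replicate 3 (0.019). The 3 largest falls were in mt-Nd3 and mt-Nd2, membrane-arm subunits of complex I, and in mt-Co3, a core subunit of complex IV. mt-Nd3 measured 50.9, 53.1 and 45.5 CPM in the tdTomato+GFP+ replicates and 72.2, 69.7 and 64.2 CPM in the tdTomato-GFP- replicates, a log2 fold change of -0.475 ± 0.07 (SE, adjusted p = 0.00183). mt-Nd2 measured 240, 257 and 235 CPM in tdTomato+GFP+, against 322, 330 and 306 CPM in tdTomato-GFP- replicates (log2 fold change -0.40, adjusted p = 0.00138). mt-Co3 measured 599, 651 and 611 CPM in tdTomato+GFP+, against 790, 789 and 792 CPM in tdTomato-GFP- replicates (log2 fold change -0.36, adjusted p = 0.00122). For each of the 3 genes all tdTomato+GFP+ replicates lay below all tdTomato-GFP- replicates.

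The other mitochondrial genes that fell were mt-Atp8 and mt-Atp6, the membrane subunits of complex V (log2 fold changes -0.27 and -0.23), mt-Nd1 (-0.24), mt-Co2 (-0.22), the copper-bearing subunit that receives electrons from cytochrome c, and mt-Cytb (-0.19), the cytochrome b of complex III. Of these, mt-Atp8 lost its call without tdTomato-GFP- replicate 3 (adjusted p = 0.058), mt-Nd1 without tdTomato-GFP- replicate 1 (0.0616) or 2 (0.0696), and mt-Cytb without tdTomato+GFP+ replicate 2 (0.053), tdTomato-GFP- replicate 1 (0.0699) or tdTomato-GFP- replicate 2 (0.0747). mt-Atp6 averaged 1428 ± 31.9 CPM in tdTomato+GFP+ and 1660 ± 35.4 CPM in tdTomato-GFP- cells (SD, n = 3 each). mt-Atp8 and mt-Atp6 overlap on the chromosome, and mt-Nd4l overlaps mt-Nd4, so reads in the shared bases cannot be split between them. mt-Co1, the catalytic subunit of complex IV, had a log2 fold change of -0.13 and an adjusted p of 0.072. It passed with the replicate block (adjusted p = 0.00176). mt-Nd5 (-0.11), mt-Nd4 (-0.11), mt-Nd4l (-0.03) and mt-Nd6 (-0.02) did not pass. mt-Nd6 lies on the other strand than the rest.

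**Figure D2:**
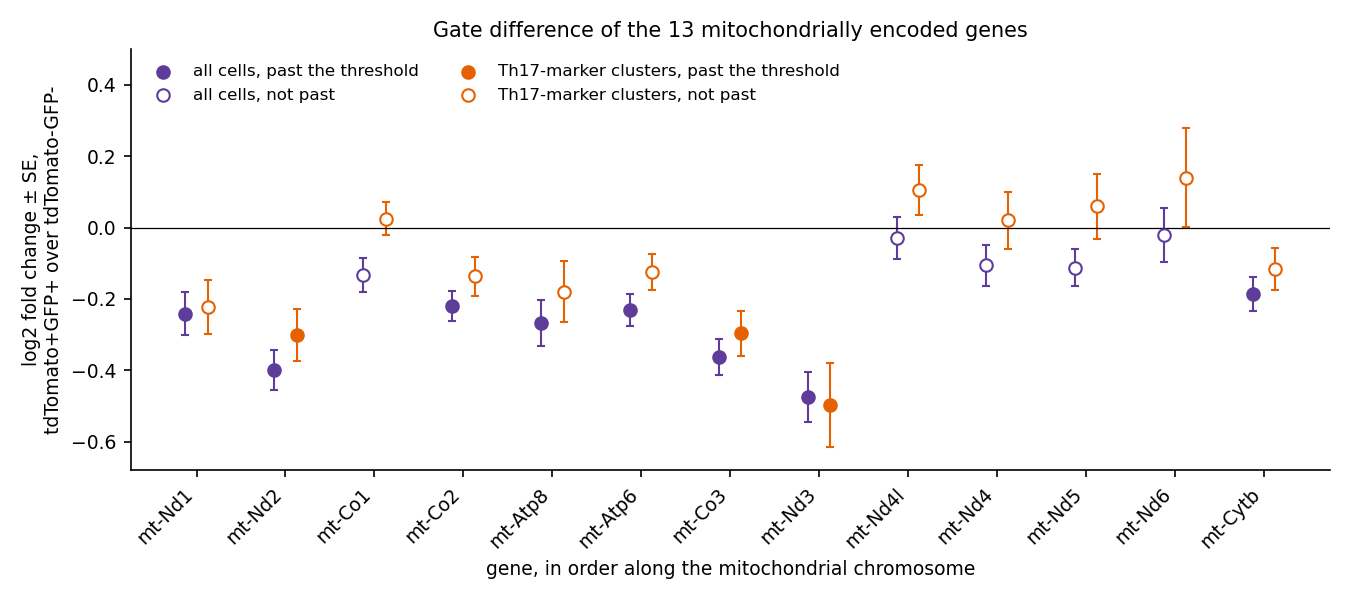
Log2 fold change ± SE of tdTomato+GFP+ over tdTomato-GFP- for the 13 mitochondrial genes, in their order along the chromosome, over all cells (purple) and in the Th17-marker clusters (orange); filled points passed the threshold. mt-Nd2, mt-Co3 and mt-Nd3 lie lowest in both, and mt-Co1, mt-Nd4l, mt-Nd4, mt-Nd5 and mt-Nd6 lie above 0 in the Th17-marker clusters.

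The mitochondrial RNAs differed in their proportions as well as in their sum. mt-Nd4l made up 8.002, 8.03 and 7.465% of the mitochondrial UMIs in the tdTomato+GFP+ replicates and 7.10, 7.12 and 6.66% in the tdTomato-GFP- replicates. mt-Co3 made up 7.95, 8.24 and 8.15% in tdTomato+GFP+, against 9.09, 9.03 and 9.14% in tdTomato-GFP- replicates. mt-Nd2 made up 3.19, 3.255 and 3.13% in tdTomato+GFP+, against 3.70, 3.78 and 3.53% in tdTomato-GFP- replicates, and mt-Co1 22.3, 22.6 and 23.6% in tdTomato+GFP+, against 21.2, 22.0 and 22.25% in tdTomato-GFP- replicates. The replicates of the gates did not overlap for any of these 4 shares. A share shows unequal change and not which gene changed.

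The gates differ in which cells they hold, and the clusters differ in mitochondrial RNA. Clusters 7 and 9, whose mitochondrial sums were among the highest, held 1.15% and 0.605% of tdTomato+GFP+ cells and 8.3% and 6.95% of tdTomato-GFP- cells. With the same number of cells of each cluster drawn from both gates (3993 cells per gate), the mitochondrial sum was 7768, 8468 and 8197 CPM in the tdTomato+GFP+ replicates and 7911, 8635 and 8619 CPM in the tdTomato-GFP- replicates. The nuclear sum was 23577, 23087 and 22927 CPM in tdTomato+GFP+, against 23426, 22473 and 22002 CPM in tdTomato-GFP- replicates. Both pairs of groups overlapped. The cells were drawn within each replicate number. For each number the mitochondrial sum was lower and the nuclear sum higher in the tdTomato+GFP+ replicate. No nuclear member passed under edgeR, the only tool run on these cells, with 3 higher and 2 lower at an unadjusted p below 0.05. That fit did not use the matching by replicate number. Among the mitochondrial genes 1 passed, mt-Nd3 (log2 fold change -0.435, adjusted p = 0.0383), where 0.9% of all tested genes passed as higher and 1.67% as lower. With the replicate block added to the equal cells, an alternative chosen after seeing the data, mt-Co3, mt-Nd1, mt-Nd2 and mt-Nd3 passed as lower and mt-Nd4l as higher. In that fit 4 nuclear genes passed as higher (Uqcr10, Ndufa4, Ndufab1 and Atp5g2) and 2 as lower (Cox5a and Ndufb1-ps), where 5.32% of all tested genes passed as higher and 7.63% as lower. Malat1, a nuclear RNA that is often relatively enriched in damaged cells, averaged 6213 CPM in tdTomato+GFP+ and 5335 CPM in tdTomato-GFP- cells with no overlap, while the 15-gene list of RNA quality and dissociation overlapped (25198 to 29064 CPM in tdTomato+GFP+, 23336 to 27100 CPM in tdTomato-GFP-). The part of Malat1 in these results was not tested.

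Within the Th17-marker clusters (5665 tdTomato+GFP+ and 1123 tdTomato-GFP- cells), the sums of both genomes, taken over these clusters together, overlapped between the gates. The nuclear sum was 23548, 23306 and 22843 CPM in the tdTomato+GFP+ replicates and 23270, 23431 and 22321 CPM in the tdTomato-GFP- replicates. The mitochondrial sum was 7359, 7531 and 6757 CPM in tdTomato+GFP+, against 7649, 7250 and 7659 CPM in tdTomato-GFP- replicates. The nuclear sums of complexes II and III and of the assembly factors still lay higher in every tdTomato+GFP+ replicate, with complex III at 2164 ± 13.1 CPM in tdTomato+GFP+ and 2073 ± 54.0 CPM in tdTomato-GFP- replicates (SD, n = 3 each). Of the 100 members tested, 1 rose and 6 fell, where 4.75% of the 10075 tested genes rose and 6.45% fell. The median log2 fold change of the nuclear members was 0, beside 0.005 for all tested genes.

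The 3 nuclear genes that fell there were Cox5a, Cox7c and Ndufa1, and none of them had passed over all cells. Cox5a, a matrix-facing subunit of complex IV (chr9:57521274-57532426, plus strand, GRCm38), measured 380, 384 and 376 CPM in the tdTomato+GFP+ replicates and 491, 522 and 446 CPM in the tdTomato-GFP- replicates. Its log2 fold change was -0.39 ± 0.07 (SE, adjusted p = 0.000857). Cox7c, a small transmembrane subunit of complex IV (chr13:86044816-86046904, minus strand), measured 587, 621 and 627 CPM in tdTomato+GFP+, against 752, 846 and 752 CPM in tdTomato-GFP- replicates, a log2 fold change of -0.39 ± 0.06 (SE, adjusted p = 0.000419). Ndufa1, a membrane-arm subunit of complex I encoded on the X chromosome, measured 304, 295 and 284 CPM in tdTomato+GFP+, against 334, 406 and 335 CPM in tdTomato-GFP- replicates (log2 fold change -0.32, adjusted p = 0.0142). Over all cells Ndufa1 had measured 291, 273 and 255 CPM in the tdTomato+GFP+ replicates and 249, 249 and 233 CPM in the tdTomato-GFP- replicates, so there every tdTomato+GFP+ replicate was the higher one, without a call. Without tdTomato+GFP+ replicate 2 or tdTomato-GFP- replicate 2, the adjusted p of Ndufa1 was 0.0509 and 0.0744. Cox5a and Cox7c passed in all 11 alternatives run.

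The gene that rose there was Cox7a2, at 362, 377 and 404 CPM in the tdTomato+GFP+ replicates and 328, 326 and 294 CPM in the tdTomato-GFP- replicates (log2 fold change 0.23, adjusted p = 0.039). It lost the call under DESeq2 (adjusted p = 0.0724) and without tdTomato+GFP+ replicate 2 (0.122) or 3 (0.123) and without tdTomato-GFP- replicate 1 (0.0813), 2 (0.0822) or 3 (0.123). It is the only nuclear member that rose both here and over all cells.

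The 3 mitochondrial genes that fell in the Th17-marker clusters, mt-Nd3, mt-Nd2 and mt-Co3, were 3 of the 8 that had fallen over all cells. mt-Co3 measured 597, 633 and 548 CPM in the tdTomato+GFP+ replicates and 699, 685 and 748 CPM in the tdTomato-GFP- replicates (log2 fold change -0.30, adjusted p = 0.00553). mt-Nd2 measured 227, 244 and 222 CPM in tdTomato+GFP+, against 289, 251 and 293 CPM in tdTomato-GFP- replicates (-0.30, adjusted p = 0.0137). mt-Nd3 measured 51.9, 53.0 and 41.5 CPM in tdTomato+GFP+, against 68.7, 72.2 and 60.45 CPM in tdTomato-GFP- replicates (-0.50, adjusted p = 0.0122). Without tdTomato-GFP- replicate 1, the adjusted p of mt-Nd2 and of mt-Nd3 was 0.101. Without tdTomato-GFP- replicate 2, that of mt-Nd3 was 0.0675. mt-Co1, at 1675, 1737 and 1596 CPM in tdTomato+GFP+, against 1594, 1590 and 1620 CPM in tdTomato-GFP- replicates, and mt-Nd4l, at 582, 594 and 505 CPM in tdTomato+GFP+, against 539, 493 and 490 CPM in tdTomato-GFP- replicates, did not pass, and their replicates overlapped. With the replicate block, 3 members passed as higher and 12 as lower, where 7.54% of all tested genes passed as higher and 9.59% as lower. The 12 then included 3 more mitochondrial genes, mt-Nd1 (adjusted p = 0.00668), mt-Co2 (0.0133) and mt-Atp6 (0.0242).

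**Figure D3:**
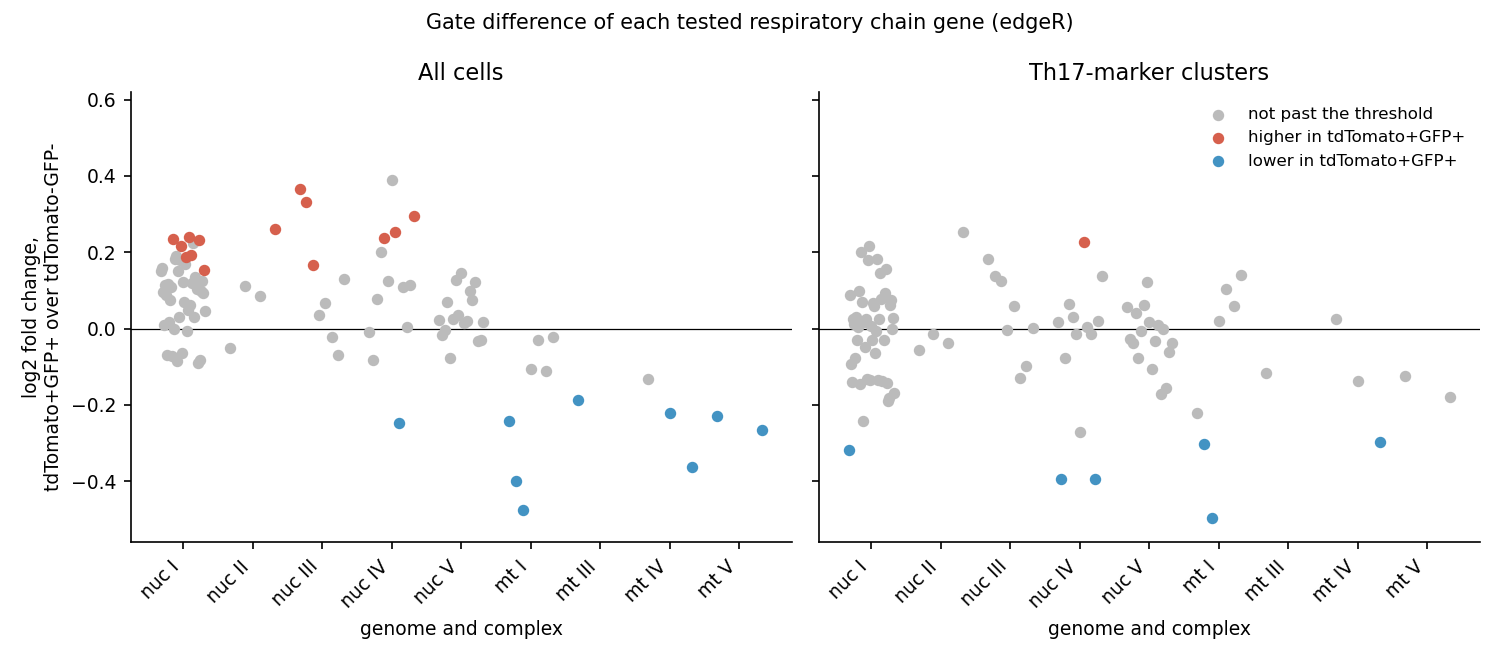
Log2 fold change of tdTomato+GFP+ over tdTomato-GFP- for the 100 tested members, by genome and complex, over all cells (left) and in the Th17-marker clusters (right); the complex I assembly factors stand with complex I and Cox7a2l with complex IV. Each point is a gene, red if it passed as higher, blue if lower, grey if neither. The nuclear genes of complexes I to IV lean above 0 over all cells and centre on 0 in the Th17-marker clusters, whereas a few mitochondrial genes stay below.

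Within these clusters the gates still differed in other ways. The summed Th1 markers averaged 583 CPM in tdTomato+GFP+ and 1593 CPM in tdTomato-GFP- cells, the summed Th17 markers 22539 CPM (tdTomato+GFP+) and 16628 CPM (tdTomato-GFP-), and Malat1 6999 CPM (tdTomato+GFP+) and 6123 CPM (tdTomato-GFP-), each without overlap. Their part in the respiratory chain results was not tested. The summed markers of B and plasma cells overlapped, at 44.1 to 83.6 CPM in tdTomato+GFP+ and 72.2 to 229 CPM in tdTomato-GFP-.

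Single clusters were compared where each of the 6 replicates held at least 20 cells, which left 11 clusters. In cluster 1, Cox5a (log2 fold change -0.49), Cox7c (-0.42), Ndufa1 (-0.55), mt-Co3 (-0.355) and mt-Nd1 (-0.35) fell and Sdhd rose, where 3.88% of tested genes fell and 2.2% rose. Sdhd measured 89.6, 81.6 and 83.5 CPM in the tdTomato+GFP+ replicates and 59.5, 50.2 and 41.3 CPM in the tdTomato-GFP- replicates (0.62, adjusted p = 0.0318), the tdTomato-GFP- values resting on 37, 16 and 11 UMIs. In cluster 2, where 2.75% of genes fell, Cox7c (-0.285), mt-Nd2 (-0.37) and mt-Nd3 (-0.565) fell. In cluster 3, where 3.33% of genes fell, Cox5a (-0.47) and Cox7c (-0.455) fell. Cox7c in cluster 3 measured 631, 635 and 640 CPM in tdTomato+GFP+, against 749, 927 and 862 CPM in tdTomato-GFP- replicates. The 3 clusters come from the same replicates, so the clusters are not independent of each other.

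Outside the Th17-marker clusters, Cox5a fell in cluster 6 (log2 fold change -0.26, adjusted p = 0.0499; background 3.2% lower), and mt-Co3 (-0.39) and mt-Nd2 (-0.43) fell in cluster 10, the cycling cells (background 2.08%). mt-Nd2 fell in cluster 11, which is led by Lars2 (-0.675; background 2.07%), resting on 17 UMIs in tdTomato+GFP+ replicate 1. The only member that rose outside cluster 1 was mt-Nd4 in cluster 5 (0.615, adjusted p = 0.029, background 1.51% higher). It measured 254, 272 and 316 CPM in the tdTomato+GFP+ replicates and 194, 210 and 177 CPM in the tdTomato-GFP- replicates. Cluster 5 is led by Penk and Klrg1, and all 10 listed Treg markers and 5 of the 7 Th2 markers were raised in it. The tdTomato+GFP+ replicates held 24, 80 and 58 cells there. In clusters 0, 4, 7 and 8 no member passed under edgeR, beside backgrounds of 2.55%, 1.56%, 0.513% and 0.73% in either direction. At an unadjusted p below 0.05, 6 of 99, 9 of 98, 11 of 93 and 5 of 97 members differed in clusters 0, 4, 7 and 8. Of all tested genes, 1210 of 9064, 892 of 7604, 430 of 5068 and 538 of 6574 met that threshold in these clusters. DESeq2 called 1 member, mt-Co3 in cluster 7, and no share of all genes is given for it. Under DESeq2 the calls of Sdhd and mt-Nd1 in cluster 1, Cox7c, mt-Nd2 and mt-Nd3 in cluster 2, Cox5a in cluster 6, mt-Co3 and mt-Nd2 in cluster 10 and mt-Nd2 in cluster 11 were lost.

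Across the 11 clusters the direction of the same genes could be read as a description. The log2 fold change of mt-Nd3 was below 0 in 11 of 11, between -0.81 and -0.21. That of mt-Nd2 was below 0 in 10 and that of mt-Co3 in 9, the exceptions being cluster 5 for both and cluster 8 for mt-Co3. mt-Nd4l was above 0 in 9. Among the nuclear members, Ndufa4 and Ndufab1 were above 0 in 11 of 11 and Uqcr10 in 10 of 11, though none of the 3 passed in any single cluster. Cox5a was below 0 in 10 and Cox7c in 9. In clusters 5 and 8, 11 of the 13 mitochondrial genes had values above 0, with medians of 0.20 and 0.15, whereas in cluster 11 all 12 tested were below 0, with a median of -0.52.

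**Figure D4:**
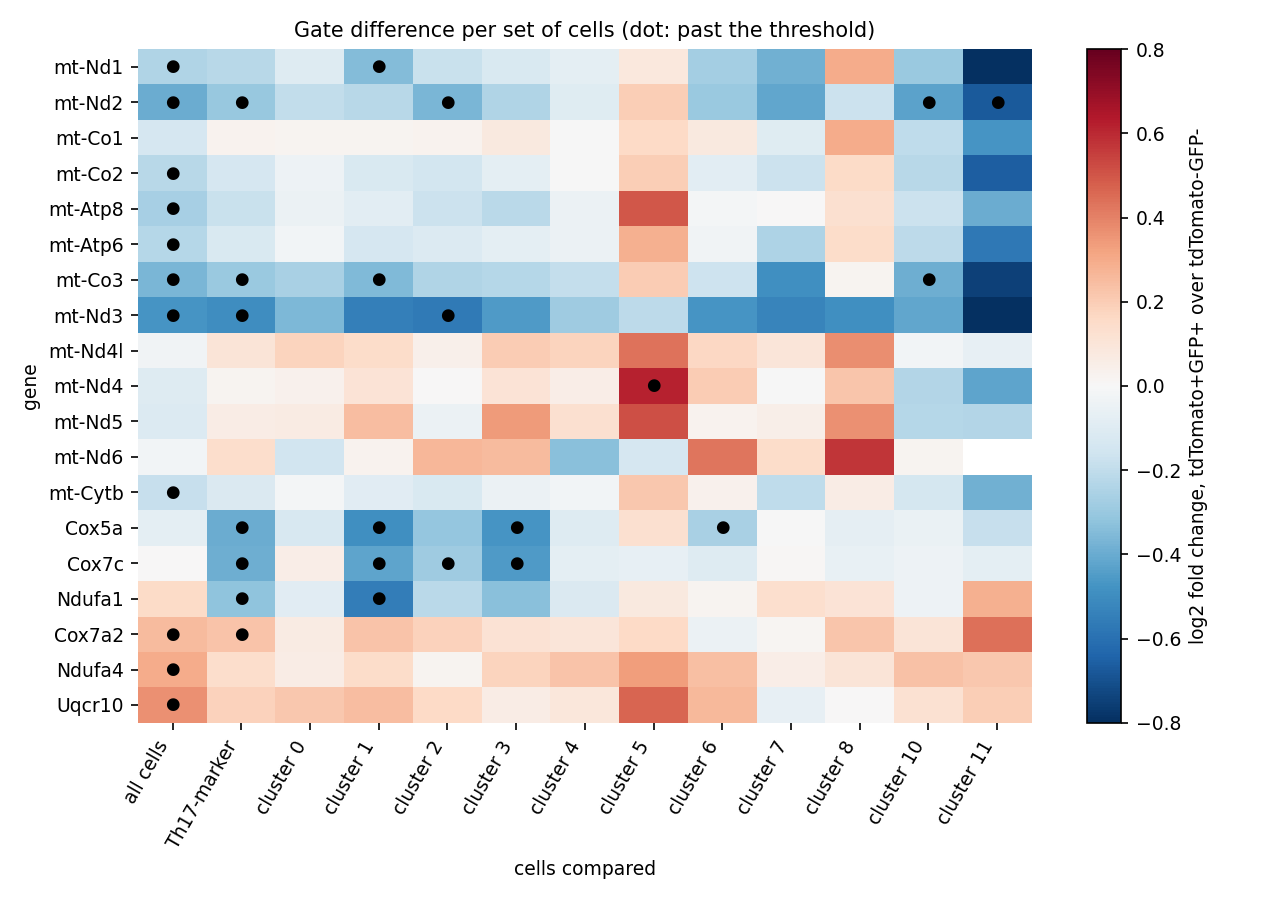
Log2 fold change of tdTomato+GFP+ over tdTomato-GFP- (colour; red higher, blue lower) for the 13 mitochondrial genes and 6 nuclear members, in all cells, the Th17-marker clusters and each of 11 clusters; a dot marks genes past the threshold and a blank cell a gene not tested. mt-Nd2, mt-Co3 and mt-Nd3 are blue in most columns, and Cox5a, Cox7c and Ndufa1 are darkest blue in cluster 1 or 3.

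The gate difference was itself compared between the Th17-marker clusters and 2 other clusters. Against cluster 0, which carries Th2 markers, the gate difference of Cox7c in the Th17-marker clusters was the lower one, by a log2 of -0.445 ± 0.09 (SE, adjusted p = 0.00719; background 1.45% lower). Cox7c in cluster 0 measured 604, 534 and 560 CPM in the tdTomato+GFP+ replicates and 564, 527 and 542 CPM in the tdTomato-GFP- replicates, which overlapped. Against cluster 5, which carries Treg markers, the differences of Atp5h (-0.52, adjusted p = 0.0456) and mt-Atp8 (-0.65, adjusted p = 0.0475) passed, beside a background of 2.02%. With no low-count filter neither passed (adjusted p = 0.0547 for Atp5h and 0.0658 for mt-Atp8). No other member's difference passed in either comparison.

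The clusters differ in the level of the chain, given here as a description because the clusters were made from these cells' expression. Replicates with fewer than 20 cells of a cluster were left out, so the values of clusters 12 and 13 come from tdTomato+GFP+ replicates alone and those of cluster 15 from tdTomato-GFP- replicates alone. The nuclear sum was highest in the cycling cluster 10, at 28175 ± 648 CPM (SD over 6 replicates of both gates), apart from the next clusters 3 (24936 ± 426) and 4 (24749 ± 665), which overlapped each other. From cluster 1 (23342 ± 414) down to cluster 8 (19716 ± 785) each cluster overlapped its neighbour. Cluster 9, naive or central memory-like, followed at 17620 ± 399 CPM (5 replicates) and lay apart from cluster 8. Cluster 14 was lowest at 7219 ± 347 CPM. Its median of 1090 UMIs per cell is far below the 8615 of cluster 10, and it was given no cell type name.

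The mitochondrial sum followed another order. It was highest in cluster 14, at 25925 ± 4614 CPM, then in cluster 7, which carries Tfh markers, at 11669 ± 1012 CPM, in cluster 9 at 10117 ± 244 CPM and in cluster 11 at 10061 ± 2823 CPM, which overlapped. Cluster 11 spanned 7442 to 15463 CPM over its 6 replicates. Of the clusters measured in all 6 replicates, clusters 1 (7154 ± 376 CPM) and 3 (7182 ± 226 CPM) were lowest. Clusters 12 and 13, measured in tdTomato+GFP+ cells alone, had 6556 ± 945 and 6312 ± 520 CPM (3 replicates each), beside 7068 ± 500 CPM in the tdTomato+GFP+ replicates of cluster 1. Below cluster 14 every cluster overlapped its neighbour in the order. Cycling cluster 10 had the highest nuclear sum and a mitochondrial sum of 7737 ± 863 CPM.

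**Figure D5:**
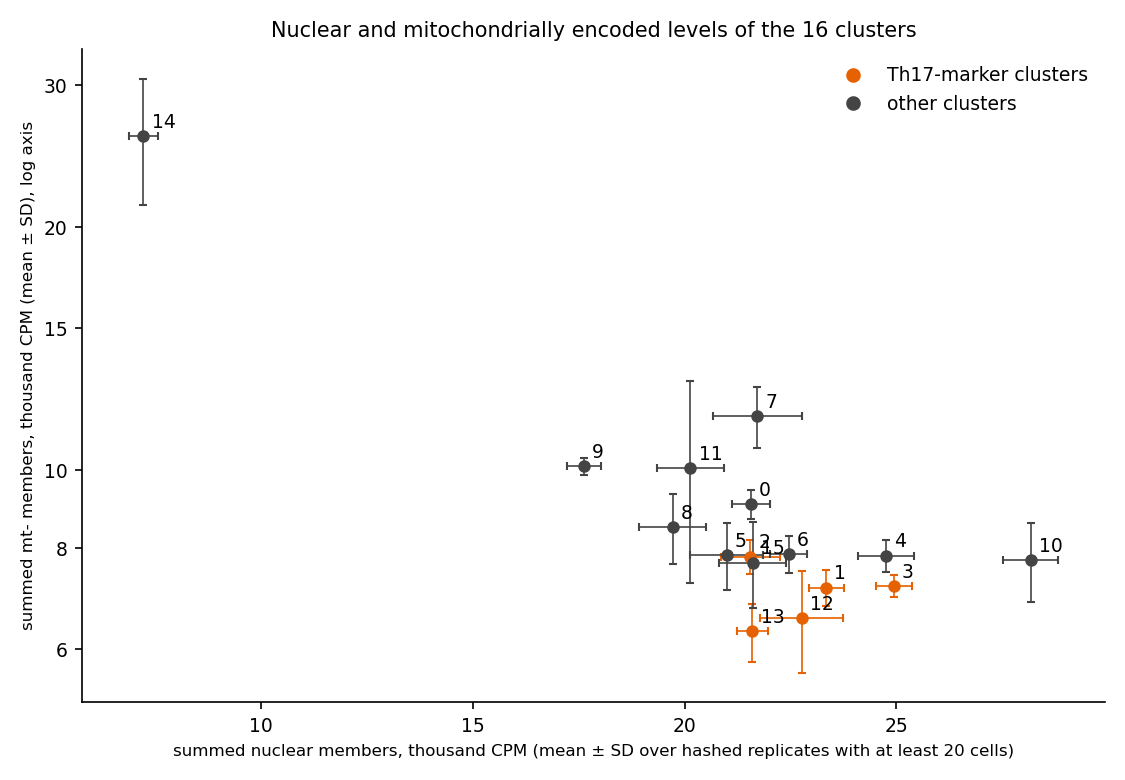
Mean summed CPM of the mitochondrial members (log axis) against that of the nuclear members in each of the 16 clusters, with SD over the hashed replicates that held at least 20 cells (tdTomato+GFP+ alone in clusters 12 and 13, tdTomato-GFP- alone in cluster 15, both gates in the others); orange marks the Th17-marker clusters. Cluster 14 stands apart with 7219 nuclear and 25925 mitochondrial CPM, and cluster 10 has the highest nuclear sum.

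Cluster 14 is left aside in the comparisons of single genes between clusters that follow. Of the 85 nuclear members with at least 1000 UMIs, 55 had their highest mean CPM in cluster 10 and 49 their lowest in cluster 9. The ratio of cluster 10 to cluster 9 was above 1 for 81 of them, with a median of 1.66, while its median over the 13 mitochondrial genes was 0.74, with 1 gene above 1. Ndufs5, an accessory subunit of complex I, had the widest spread of the members measured at that depth, with 227 CPM in cluster 3 and 59.0 CPM in cluster 9. Cox5a had 597 CPM in cluster 10 and 222 CPM in cluster 9. Cox7a2l ran the other way, with 100 CPM in cluster 10 and 235 CPM in cluster 9, and Sdha and Ndufa7 were among the flattest, with highest-to-lowest ratios of 1.32 and 1.22. Of the mitochondrial genes, 12 of 13 had their highest mean in cluster 7 once cluster 14 was left aside. mt-Co1, for example, had 2630 CPM in cluster 7 and 5573 CPM in cluster 14.

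Tissue isoforms of complex IV were those of non-muscle cells. Cox4i2, the lung-type isoform, had 7 UMIs in all and Cox6b2, the testis isoform, 61, and neither passed the filter on low counts. Cox7a1, the heart and muscle isoform, had 354 UMIs, at 5.25, 4.91 and 4.21 CPM in the tdTomato+GFP+ replicates and 4.72, 3.09 and 2.78 CPM in the tdTomato-GFP- replicates, which overlapped (log2 fold change 0.39, adjusted p = 0.254). Its counterpart Cox7a2 had 27249 UMIs. Cox6a1, the liver-type isoform, averaged 341 CPM in tdTomato+GFP+ and 294 CPM in tdTomato-GFP- cells (adjusted p = 0.0548).

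Other genes of mitochondrial energy metabolism were counted in the same edgeR fits, the only tool run on these lists. Over all cells 13% of all tested genes rose and 13.4% fell, and in the Th17-marker clusters 4.75% rose and 6.45% fell, and each count is to be read against these shares. Of 41 assembly factors outside the naming rule, 11 rose and 0 fell over all cells (16 and 1 at an unadjusted p below 0.05), among them Cox19 (log2 fold change 0.45), which helps deliver copper to complex IV, and Surf1 (0.34), which assembles its core, and in the Th17-marker clusters Surf1 rose (0.51) and Cmc2 fell (-0.34). Of 78 mitochondrial ribosomal proteins, which translate the 13 mitochondrial messages, 26 rose and 0 fell over all cells (33 and 0 unadjusted), led by Mrps6 (0.52). In the Th17-marker clusters 4 rose, Mrps6 (0.78), Mrpl38 (0.54), Mrpl30 (0.37) and Mrpl52 (0.36), and 0 fell (2 unadjusted). The medians of that list were 0.12 over all cells and 0.08 in the Th17-marker clusters. Of 95 tested columns named as cytosolic ribosomal proteins, a pattern that also takes in a few Rps6k kinases, 1 rose and 78 fell over all cells, and 1 rose and 47 fell in the Th17-marker clusters.

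Among 27 genes of mitochondrial transcription and RNA handling, Rexo2 (0.40), which degrades short mitochondrial RNAs, rose over all cells, and Polg2 (-0.42), the accessory subunit of the mitochondrial DNA polymerase, and Tfam (-0.31), which packages mitochondrial DNA and starts its transcription, fell. Tfam averaged 23.5 CPM in tdTomato+GFP+ and 28.8 CPM in tdTomato-GFP- cells. In the Th17-marker clusters Polg2 fell (-0.58) and the catalytic subunit Polg rose (0.56). Of 13 regulators of mitochondrial biogenesis, Myc fell over all cells (-0.77), with 7 lower and 0 higher at an unadjusted p below 0.05, which 4476 of the 11933 genes met in either direction, and 0 passed in the Th17-marker clusters (1 lower unadjusted). Of 18 genes of electron carriers and coenzyme Q synthesis, Etfb rose (0.26) and Coq8a fell (-1.04) over all cells, and 0 passed in the Th17-marker clusters (2 higher unadjusted). Beside the 13% of all genes that rose and the 13.4% that fell, the counts called over all cells in these 3 lists are below the background.

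In the 20 genes of the tricarboxylic acid cycle and pyruvate entry, 3 rose and 2 fell over all cells, with Fh1 (0.30) higher and Pdk1 (-1.36), the kinase that shuts pyruvate dehydrogenase, and Suclg1 (-0.23) lower. In the Th17-marker clusters 0 rose (1 unadjusted) and Pdk1 (-1.16), Pdha1 (-0.37), Cs (-0.31) and Idh3a (-0.29) fell. Cs, citrate synthase, averaged 103 CPM in tdTomato+GFP+ and 126 CPM in tdTomato-GFP- cells there. Of 17 glycolytic genes, 5 rose and 3 fell over all cells, and in the Th17-marker clusters Hk2 (-2.17) and Pfkp (-0.64), early enzymes of the pathway, fell and 0 rose (2 unadjusted). Among 9 genes of antioxidant defence and uncoupling, 4 rose over all cells: Gpx1 (1.09), Ucp2 (0.54), Txnrd2 (0.41) and Glrx2 (0.185). Ucp2, an inner-membrane carrier, averaged 2633 CPM in tdTomato+GFP+ and 1801 CPM in tdTomato-GFP- cells, and Gpx1 rose also in the Th17-marker clusters (0.40). Against backgrounds of 13% higher and 13.4% lower over all cells, the counts of the tricarboxylic acid cycle are near the background, and those of the other pair of lists rest on few genes.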

How the data were processed

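Raw UMI counts per cell and gene, with the gate, hashed replicate and cluster of each cell, were used as deposited by the authors. Cell Ranger and Scanpy 1.7.2 and the builds mm10 and GRCm38 are named per the submitters' processing notes. The labels name both 3′ v3 and 5′ v2 reagents as possible. The filters, annotation and clustering settings are not given in the sources used here. Hashtags held 43.82% of the deposited UMI counts and were left out of every total. No doublet caller was run, and no column of per-sample values was left unused except the receptor table, which was not analysed here.

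UMIs were summed per gate and replicate over all 18874 assigned cells, over the Th17-marker clusters and over each cluster with at least 20 cells in all 6 replicates. CPM are UMIs scaled to these sums and are not scaled for gene length, so a difference in CPM between genes was not read as a difference in level; genes named for high CPM or UMIs were chosen for depth of counting. edgeR 4.0.16 (TMM, filterByExpr with a minimum count of 10, robust quasi-likelihood test, two-sided) was fitted across all genes, with Benjamini-Hochberg adjustment and a threshold of 0.05. DESeq2 1.42.0, other scalings, no low-count filter, a replicate block, equal cells per cluster and leaving out each replicate were the alternatives. The test was also run on simulated data with a fixed dispersion, the depth of all cells and unpaired replicates. That run does not cover the small clusters or paired samples, and its outcome is not reported here. Gate differences were compared between clusters with sample as a block.

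Over all cells, replicates of the same number correlated in their deviations from the gate means (r = 0.276, 0.224 and 0.236), so the numbers pair the samples there. The main test did not use this pairing, and the calls named without a setting come from it. The replicate block used it. In the Th17-marker clusters the values were 0.138, 0.046 and 0.166, which does not meet the minimum of 0.1 for every pair. The replicates are biological triplicates per the labels.

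The members and lists were chosen with earlier results of these data known. Named are all mitochondrial genes, all nuclear members past the threshold over all cells, up to 10 passing members per cluster comparison, the 3 nuclear members of each complex with the highest mean CPM, tissue isoforms, and up to 4 passing genes of each other list. Ndufb1-ps and Uqcrfs1, Ndufa7, Sdha, Ndufaf8 and other genes given beside these were added for context after their values were seen. Gene coordinates are those of GENCODE on GRCm38. Single values of some genes of the other gene lists are not reported here.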

Additional observations from a re-analysis of the deposited data

Results flagged for a closer look

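In 3 members the gate difference itself differed between sets of cells, by edgeR's test of the difference with Benjamini-Hochberg adjustment over all tested genes. These were 1 of 100 tested members against cluster 0 and 2 of 99 against cluster 5, all lower. Of all tested genes 1.45% and 2.02% passed as lower in these comparisons, so the counts are near the background. For Cox7c, the log2 gate difference in the Th17-marker clusters minus that in cluster 0 was -0.445 (adjusted p = 0.00719). Cox7c averaged 611 CPM in tdTomato+GFP+ and 783 CPM in tdTomato-GFP- cells of the Th17-marker clusters, and 566 CPM (tdTomato+GFP+) and 545 CPM (tdTomato-GFP-) in cluster 0. For Atp5h, a stalk subunit of complex V, the difference in the Th17-marker clusters minus that in cluster 5 was -0.516 (adjusted p = 0.0456), with 647 CPM in tdTomato+GFP+ and 678 CPM in tdTomato-GFP- cells of the Th17-marker clusters and 645 CPM (tdTomato+GFP+) and 501 CPM (tdTomato-GFP-) in cluster 5. For mt-Atp8 it was -0.648 (adjusted p = 0.0475), with 123 CPM in tdTomato+GFP+ and 135 CPM in tdTomato-GFP- cells of the Th17-marker clusters and 174 CPM (tdTomato+GFP+) and 134 CPM (tdTomato-GFP-) in cluster 5. With no low-count filter, neither Atp5h (adjusted p = 0.0547) nor mt-Atp8 (0.0658) passed. The cluster 5 values of mt-Atp8 rest on 15, 60 and 39 UMIs in the tdTomato+GFP+ replicates.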

How the results depend on the processing

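With equal cells per cluster, the log2 ratio of the summed CPM was 0.035 for the nuclear and -0.043 for the mitochondrial members, and the mean share per cell over all 18874 cells, with no equal draw, gave -0.229 for the mitochondrial members. Over all cells, 14 nuclear members higher, 1 lower and 8 mitochondrial members lower became 0, 0 and 1 with equal cells per cluster. With equal cells and the replicate block they became 4, 2 and 4, with 1 mitochondrial member higher. DESeq2 gave 10 nuclear members higher. The replicate block alone gave 30 nuclear members higher and 2 lower. In that pair of settings Ndufs5 was -0.058 with equal cells and -0.052 with the block added, and mt-Nd4l was 0.14 with both, each the other way than over all cells. In the Th17-marker clusters, 1 member higher became 0 under DESeq2, 3 with the replicate block and 3 with total counts, and 6 lower became 12 with the block. Over the single clusters, 2 higher became 6 with the block, and 14 lower became 9 under DESeq2, 25 with no low-count filter and 26 with the block. Of the 2 lower gate differences between the Th17-marker clusters and cluster 5, 0 passed with no low-count filter and 5 with RLE size factors. The cause of these changes was not tested. The share of all tested genes called moved as well. Over all cells it was 13% higher and 13.4% lower in the main fit and 17.3% and 17.4% with the block. DESeq2 gave 10.2% and 11.6%, and equal cells 0.9% and 1.67%, or 5.32% and 7.63% with the block. In the Th17-marker clusters 4.75% and 6.45% became 7.54% and 9.59% with the block. No such share is given for the other alternatives, left-out replicates included, so those counts have no background. Leaving out each replicate in turn gave 6 to 20 nuclear members higher and 0 to 1 lower over all cells, 6 to 8 mitochondrial members lower and 0 to 0 higher, 0 to 1 higher and 4 to 7 lower in the Th17-marker clusters, and 0 to 8 higher and 7 to 10 lower over the single clusters, the 8 without tdTomato+GFP+ replicate 1. The summed CPM ratio stayed between 0.07 and 0.107 for nuclear and between -0.211 and -0.174 for mitochondrial members. mt-Nd3 passed over all cells in all 15 alternatives, and Cox5a, Cox7c and mt-Co3 in all 11 run in the Th17-marker clusters. Small clusters limit the depth: the tdTomato+GFP+ replicates held 20 to 43 cells in cluster 7 and 21 to 83 in cluster 11.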

Other observations

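The 4721 cells that the authors assigned to no replicate were left out of every comparison. They hold 2504 cells of the tdTomato+GFP+ and 2217 of the tdTomato-GFP- lane, with a median of 7676 and 7103 UMIs per cell. Their nuclear members summed to 23301 CPM in the tdTomato+GFP+ and 21101 CPM in the tdTomato-GFP- lane, and their mitochondrial members to 8247 CPM (tdTomato+GFP+) and 9466 CPM (tdTomato-GFP-), each 1 value per lane with no replicate.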
